A study of Mus musculus with 18 samples.

Results

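The comparison of papilloma (PAP) with chronically UV-exposed nonlesional skin (CHR) used 12 of the 18 small RNA libraries of the SKH-1E Hairless mouse. SKH-1E is a strain that lacks a working Hairless gene and readily forms skin tumours under ultraviolet radiation (UVR). The 12 libraries were chosen by their sample titles and came from 6 female littermates, numbered mouse 2, 3, 7, 8, 9 and 10. Each mouse gave 1 CHR and 1 PAP sample, and all had been exposed to solar-simulated UVR from young adulthood, so that CHR was itself chronically irradiated and no unexposed skin enters the comparison. The other 6 libraries came from cutaneous squamous cell carcinoma (cuSCC) of the same mice and serve only as a second reference. Papillomas were pieces of bulk tissue of low histological grade and mostly tumour, so each value is an average over tumour cells, stroma, vessels and blood. The table held 1251 microRNA entries, and 293 of them were detected in at least 6 of the 18 libraries and were tested.

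MicroRNAs are small RNAs that guide Argonaute proteins to messenger RNAs, mainly through their seed, bases 2 to 8 from the 5′ end, and lower the stability and translation of those messages. A hairpin precursor gives a 5p and a 3p arm, and hairpins that lie close together are often cut from 1 primary transcript, as a cluster. Arms with the same seed form a family and share many predicted targets, even when they are encoded on different chromosomes. In skin, miR-203 and miR-205 and the miR-200 family mark keratinocytes, miR-143 and miR-145 mark smooth muscle, miR-199 and miR-214 fibroblasts, miR-133 and miR-206 skeletal muscle, and miR-451a red blood cells.

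The mature sequences of the arms on which the comparison turned are given with the seed in capitals, as recorded by RefSeq on GRCm38.p6, which held 241 of the 293 tested entries. The first set shares the seed of the miR-17 family, which comes from 2 clusters on separate chromosomes.
miR-17-5p: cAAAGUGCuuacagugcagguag
miR-20a-5p: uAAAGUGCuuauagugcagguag
miR-93-5p: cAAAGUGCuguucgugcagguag
miR-106b-5p: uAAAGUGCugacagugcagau

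The second set shares the seed of the miR-25 and miR-92 family. It is shown because its members did not move in 1 direction.
miR-25-3p: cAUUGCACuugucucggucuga
miR-92a-3p: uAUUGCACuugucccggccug
miR-92b-3p: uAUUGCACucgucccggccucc

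The third set holds the 2 seeds of the miR-200 family, whose members come from 2 clusters.
miR-200b-3p: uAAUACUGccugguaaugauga
miR-200c-3p: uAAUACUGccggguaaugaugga
miR-429-3p: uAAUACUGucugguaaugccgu
miR-141-3p: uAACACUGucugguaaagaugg
miR-200a-3p: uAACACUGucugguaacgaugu

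The fourth set, of the miR-15/16 family, and the fifth, of miR-221 and miR-222, are shown because arms with an identical seed gave different results.
miR-15b-5p: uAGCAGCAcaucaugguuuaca
miR-16-5p: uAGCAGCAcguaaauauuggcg
miR-195a-5p: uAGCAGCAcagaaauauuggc
miR-221-3p: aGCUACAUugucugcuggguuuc
miR-222-3p: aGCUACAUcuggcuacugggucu

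The last set holds arms with large differences that are described one by one.
miR-31-5p: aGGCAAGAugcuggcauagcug
miR-210-3p: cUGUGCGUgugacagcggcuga
miR-138-5p: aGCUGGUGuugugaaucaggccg
miR-182-5p: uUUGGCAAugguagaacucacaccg
miR-205-3p: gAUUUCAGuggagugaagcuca
miR-204-5p: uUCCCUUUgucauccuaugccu

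Values are log2 of ppm, a share of the usable reads, after quantile normalization over the 18 libraries, which makes them relative levels within a library. An entry at 3.32, the log2 of 10 ppm, was read as not detected, and a difference that involves this value is on a truncated scale. The depth of single libraries is unknown, so no counting error is given. Between 200 and 328 entries were detected in a CHR library and between 163 and 281 in a PAP library, with medians of 281.5 and 206.5. The smallest detected value was as high as 6.83 in the PAP of mouse 10 and 5.77 in the CHR of mouse 7. The PAP libraries of mice 2 and 3 stood apart in that miR-486-5p, an erythroid microRNA, was their highest entry, whereas miR-205-5p was highest in the other 4 PAP libraries. Where undetected values are said to be raised, each was replaced by the smallest value detected in that library.

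PAP differed from CHR in 95 of 293 tested microRNAs (32.4%) at an adjusted p under 0.05, 41 of them higher (14.0%) and 54 lower (18.4%). The microRNAs called higher included 6 of 8 tested arms of the miR-200 family, arms of the miR-17~92 and miR-106b~25 clusters, and miR-31, miR-210 and miR-138. Those called lower included miR-133a, miR-204, miR-143, miR-145a, miR-150 and arms of the miR-181, miR-199 and miR-34 families. The lowest PAP sample was above the highest CHR sample for 19 microRNAs (6.48%), and the highest PAP sample was below the lowest CHR sample for 28 (9.56%). The median log2 fold change over all 293 was -0.23, and it was 0.16 over the 123 that were detected in all 12 libraries. Among these 123 were 30 of the 41 higher and 19 of the 54 lower microRNAs. Of the lower ones, 7 were detected in no PAP library and 19 in at most 2. With undetected values raised, 63 were higher and 37 lower, the median became 0.44, and 25 of the 95 calls were lost. Without mice 2 and 3, 19 were higher and 28 lower, and without mice 7 and 10, 27 were higher and 35 lower. Leaving out single mice moved the counts by more than 1.5 times only for mouse 3, with 25 higher and 30 lower, and for mouse 7, with 26 higher and 33 lower. A set of 31 calls, 20 higher and 11 lower, passed with mouse as a block, without each mouse in turn, with undetected values raised and with a floor of 100 ppm, to which all lower values were set.

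**Figure D1:**
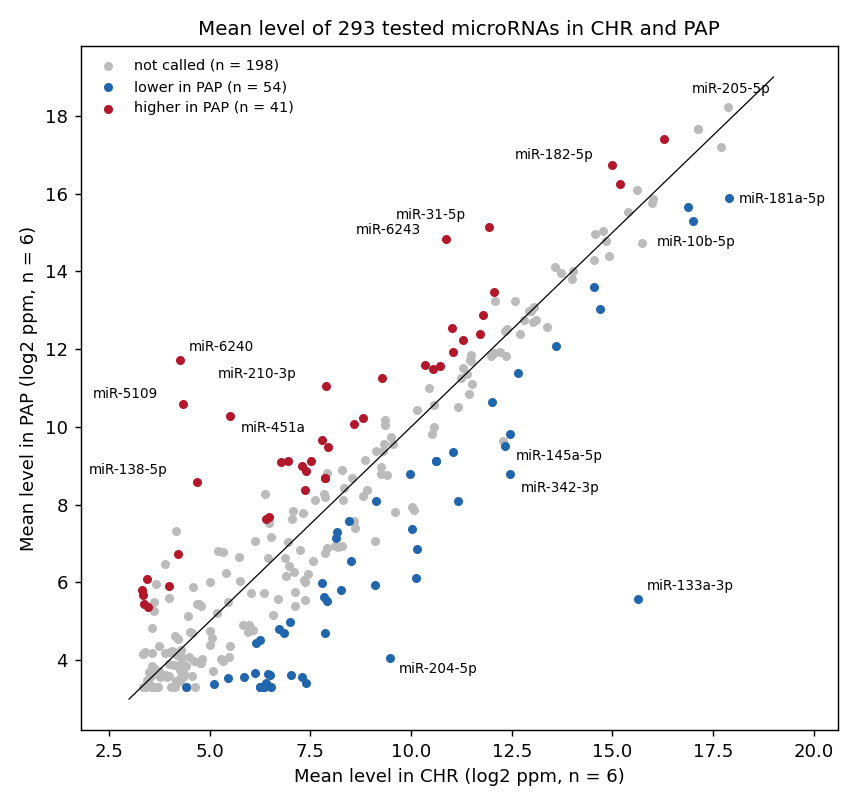
Mean level of each of the 293 tested microRNAs in CHR (horizontal axis) and in PAP (vertical axis), in log2 ppm over 6 samples each, with the line of equal level. The 41 microRNAs higher in PAP (red) lie above the line and the 54 lower ones (blue) below it, with miR-133a-3p farthest below it at 15.63 in CHR and 5.59 in PAP.

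MicroRNAs were then grouped into 39 lists by family, cluster or cell type, 38 of which had a tested member. Calls went in 1 direction in 21 of them, higher in 10 and lower in 11. They went in both directions in 3 lists, and 14 had no call. Of 21 hairpin clusters with at least 3 tested arms, 14 held a call, and none of these held calls in both directions. Some lists and clusters held only 1 call and could show only 1 direction. Clusters can also share arms, as those of miR-181 share miR-181a-5p and miR-181b-5p. Lists were chosen with earlier results of these data known, so these counts are a description and not a test of agreement.

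**Figure D2:**
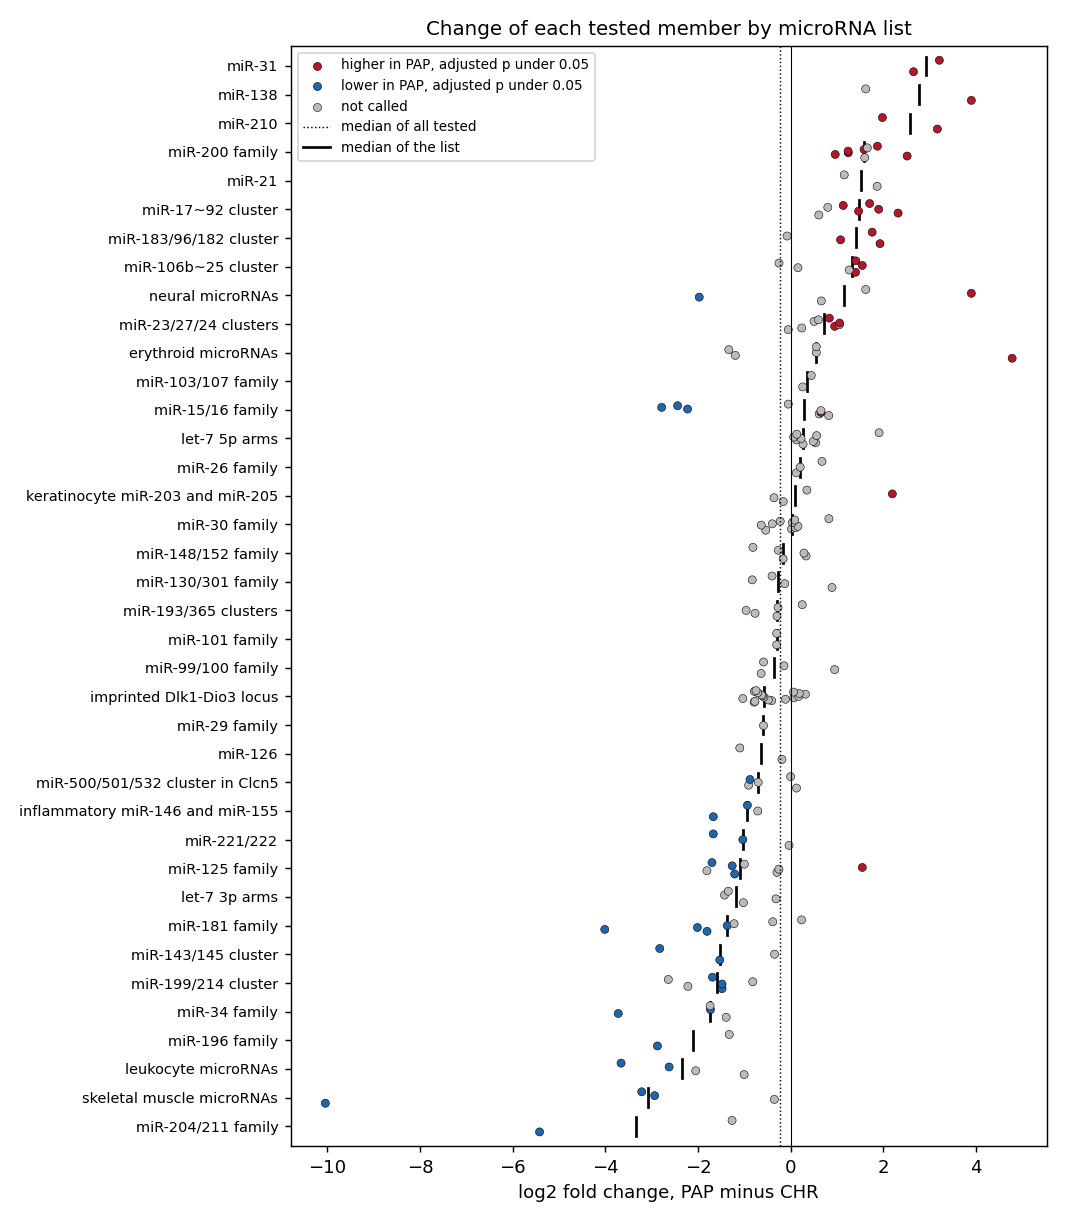
log2 fold change of each tested member, PAP minus CHR, in the 38 lists with a tested member, ordered by their median (black bar), with the median of all 293 tested microRNAs as a dotted line at -0.23. Red points are higher and blue points lower in PAP at an adjusted p under 0.05. Red points gather at the top, in miR-31, miR-210, miR-138 and the miR-200, miR-17~92 and miR-106b~25 groups, and blue points at the bottom.

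Of 12 tested keratinocyte arms, 7 were called higher in PAP and none lower, 6 of them in the miR-200 family and 1 of 4 arms of miR-203 and miR-205. Over all 293 tested microRNAs, 14.0% were called higher and 18.4% lower. The main keratinocyte microRNA miR-205-5p was among the most abundant entries in both tissues. The miR-200 family represses the transcription factors ZEB1 and ZEB2 and is known as a guardian of the epithelial state. All 8 of its tested arms had a positive difference, with a median of 1.59, and 6 were called higher and none lower. These came from both of its clusters, Mir429/Mir200a/Mir200b at chr4:156053905-156055750 and Mir141/Mir200c at chr6:124717914-124718390, both on the minus strand of GRCm38.p6. In the GENCODE annotation the first of these lies in introns of Ttll10, and the second in an intron of the noncoding gene Gm15884.

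miR-200c-3p ranged from 9.88 to 11.10 in CHR, with a median of 10.34, and from 10.89 to 12.06 in PAP, with a median of 11.56. The PAP sample was higher in 6 of 6 mice although the groups overlapped, and the log2 fold change was 1.24 ± 0.28 (SE, adjusted p = 0.00516, n = 6 per group). miR-429-3p lay between 6.34 and 8.49 in CHR and between 8.82 and 10.60 in PAP, with medians of 7.96 and 9.50. Its groups did not overlap, at a log2 fold change of 1.87 ± 0.43 (SE, adjusted p = 0.00575). miR-200a-5p, the passenger arm of its hairpin, also separated the groups, at 3.32 to 5.25 in CHR and 5.76 to 7.85 in PAP, but was undetected in 2 CHR samples, and with a floor of 100 ppm its difference went from 2.51 to 0.38 and was not called (adjusted p = 0.32). The other called arms were miR-141-3p (1.58), miR-200b-5p (1.24) and miR-200b-3p (0.96). miR-141-3p did not pass without mouse 3 or 7, miR-200b-5p without 3, 7 or 8, and miR-200b-3p without 2, 3, 7, 8 or 9. miR-200b-3p also did not pass with mouse as a block (adjusted p = 0.105), and neither miR-200b arm passed with a floor of 100 ppm (adjusted p = 0.051 for each).

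The cluster of miR-183, miR-96 and miR-182, at chr6:30165918-30169737 on the minus strand, has no annotated host gene on its strand and is known from sensory organs and from several carcinomas. miR-182-5p was its most abundant arm, at 14.33 to 15.14 in CHR (median 15.14) and 16.15 to 17.37 in PAP (median 16.80). Its groups were well apart, and the level rose 3.38-fold (log2 fold change 1.76 ± 0.26 SE, adjusted p = 0.000292). miR-183-5p was higher by 1.08 (adjusted p = 0.0441) and miR-183-3p by 1.93 (adjusted p = 0.0356), but neither passed without mouse 2, 3, 7, 8 or 9, and miR-183-3p did not pass with mouse as a block (adjusted p = 0.0975). With a floor of 100 ppm neither was called, and the difference of miR-183-3p was 0.046. The remaining arm, miR-96-5p, was detected in 1 CHR and 1 PAP sample.

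miR-205, made from a noncoding gene on chromosome 1, is among the most abundant microRNAs of keratinocytes. Its main arm miR-205-5p had a mean of 17.87 ± 0.37 in CHR and 18.22 ± 0.39 in PAP (SD, n = 6), a difference of 0.35 that did not pass (adjusted p = 0.335). The other arm of the same hairpin, miR-205-3p, was much less abundant. It ranged from 6.17 to 8.02 in CHR (median 6.71) and from 8.52 to 10.22 in PAP (median 9.04), without overlap. This arm rose 4.57-fold (log2 fold change 2.19 ± 0.37 SE, adjusted p = 0.000641). miR-203-3p, which restrains the p63 programme of basal keratinocytes, was at 12.06 ± 0.67 and 11.90 ± 0.66 (SD, adjusted p = 0.779), and both miR-203 arms had negative differences (-0.16 and -0.36). The highest value of a library was 18.22 or 18.47 throughout, so miR-205-5p had little room to rise on this scale.

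Beside the erythroid miR-451a, the largest gains that separated the groups among well studied microRNAs were in miR-31, miR-210 and miR-138. miR-31, from a noncoding gene on chromosome 4 (chr4:88910557-88910662, minus strand), is known to promote keratinocyte proliferation and is induced in wounds and psoriasis. miR-31-5p was at 11.22 to 13.02 in CHR (median 11.91) and at 13.93 to 15.98 in PAP (median 15.09). All PAP samples were above all CHR samples, and the level rose 9.24-fold (log2 fold change 3.21 ± 0.39 SE, adjusted p = 4.9e-05). In rank it went from position 52 of the tested microRNAs in CHR to 15 in PAP. The partner arm miR-31-3p was detected in 2 CHR and 5 PAP samples and was called higher on the truncated scale (2.65 ± 0.63 SE, adjusted p = 0.00732), but with a floor of 100 ppm its difference was 0.33 and not called (adjusted p = 0.262).

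miR-210 is the classic target of hypoxia-inducible factors and acts on mitochondrial metabolism. Its hairpin lies at chr7:141221384-141221493 on the minus strand. miR-210-3p ranged from 7.25 to 8.49 in CHR (median 7.92) and from 10.12 to 11.85 in PAP (median 11.12). No sample of 1 group reached the other, and the gain was 8.97-fold (log2 fold change 3.17 ± 0.31 SE, adjusted p = 1e-05), with the smallest adjusted p among the higher microRNAs described here. miR-210-5p, at 8.72 to 9.96 in CHR and 10.17 to 12.12 in PAP, separated the groups too (1.98 ± 0.34 SE, adjusted p = 0.000666). miR-138-5p, encoded on both chromosome 8 and chromosome 9 and best known from neurons, was at 3.32 to 5.92 in CHR (median 5.10) and at 7.54 to 10.60 in PAP (median 8.31). It was undetected in 2 CHR samples and present in all 6 PAP samples, at a difference of 3.90 ± 0.59 on the truncated scale (SE, adjusted p = 0.000322) and of 3.30 with undetected values raised, or 1.95 with a floor of 100 ppm. Another microRNA of the neural list, miR-128-3p, was lower by -1.97 (adjusted p = 0.0364) without overlap and was undetected in the PAP of mouse 10. That call was lost with mouse as a block (adjusted p = 0.0548) and without mouse 2, 3, 8 or 9. miR-21a-5p, the oncogenic microRNA most often raised in carcinomas, was at 11.03 to 12.87 in CHR and 12.30 to 15.03 in PAP, and its difference of 1.15 did not pass (adjusted p = 0.08). It was higher in 4 of 6 mice and passed when all 18 libraries were fitted together (adjusted p = 0.0467).

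**Figure D3:**
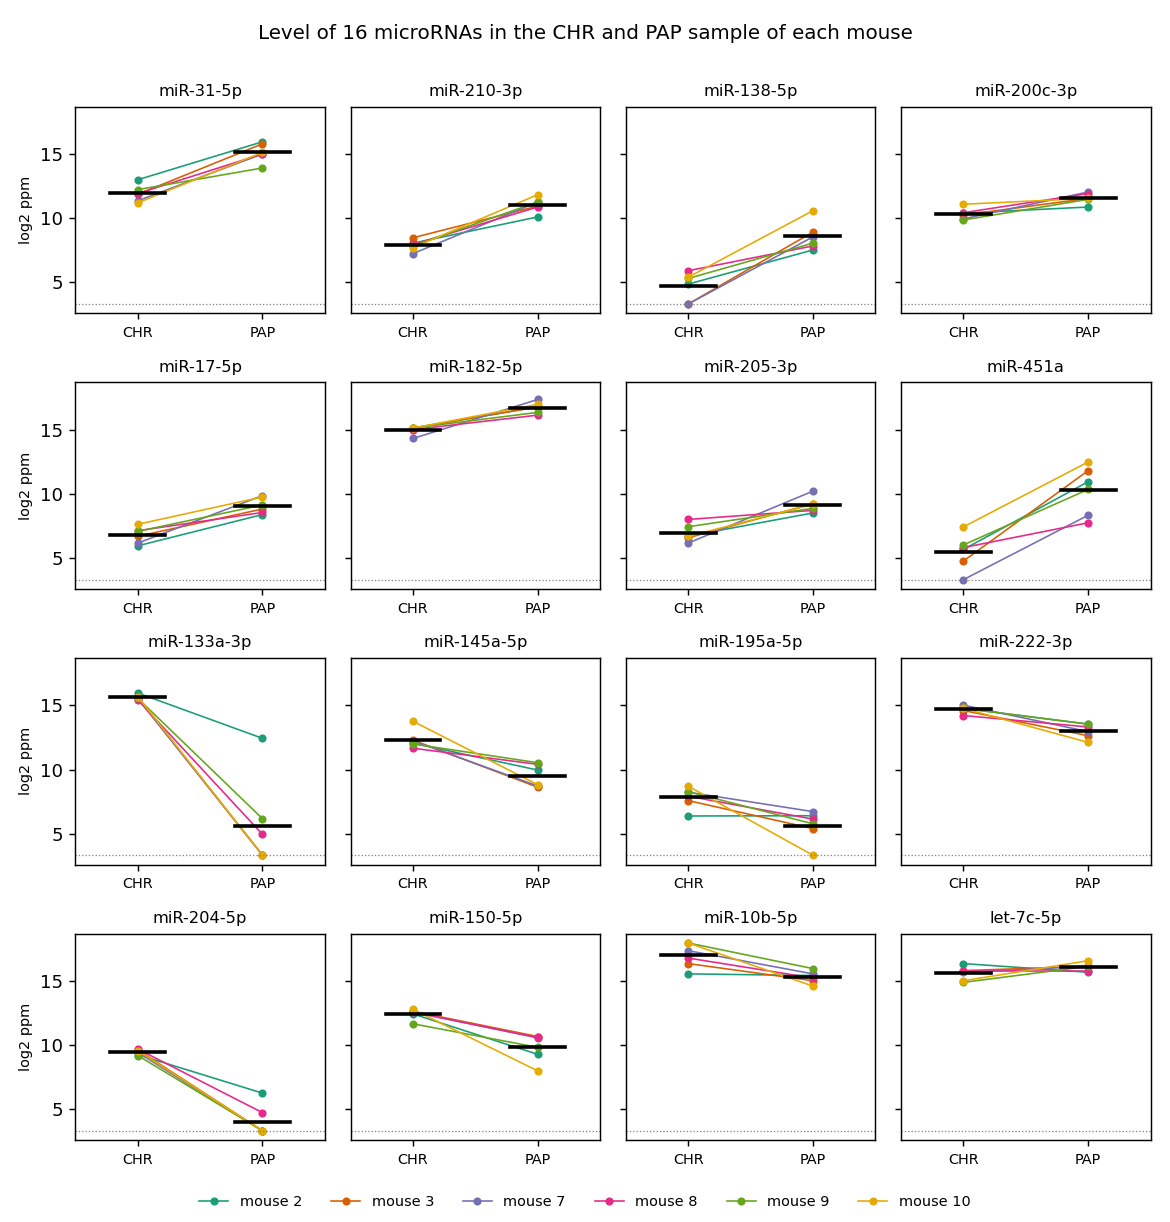
Level of 16 microRNAs in the CHR and PAP sample of each mouse, in log2 ppm, with a coloured line per mouse, black bars for the mean of 6 samples and a dotted line at the lowest value of 3.32. The lines of miR-31-5p, miR-210-3p, miR-138-5p and miR-182-5p rise in all 6 mice, those of miR-133a-3p, miR-145a-5p, miR-204-5p and miR-150-5p fall in all 6, and those of let-7c-5p cross.

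Calls in the 2 clusters linked to proliferation were all higher and covered 8 of 13 tested arms, against 14.0% called higher of all tested microRNAs. The miR-17~92 cluster, transcribed as Mir17hg at chr14:115043671-115044506, and the miR-106b~25 cluster, within Mcm7 at chr5:138165321-138165818 on the minus strand, are paralogs that are activated by MYC and E2F factors and repress inhibitors of the cell cycle. All 7 tested arms of miR-17~92 had positive differences, with a median of 1.47, and 5 were called higher, or 4 with mouse as a block. Of 6 tested arms of miR-106b~25, 5 were positive and 3 were called higher, with a median of 1.33, while miR-25-5p was at -0.25 and not called. The third paralog is the miR-106a cluster on the X chromosome. None of its 8 entries for miR-106a, miR-18b, miR-20b and miR-363 passed the detection filter. miR-92a-3p, counted here under miR-17~92, is also encoded by Mir92-2 at chrX:52741838-52741928 and cannot be assigned to 1 locus.

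miR-17-5p lay between 5.96 and 7.64 in CHR (median 6.89) and between 8.40 and 9.88 in PAP (median 8.99). Without overlap, it rose 4.98-fold (log2 fold change 2.32 ± 0.37 SE, adjusted p = 0.000405). miR-93-5p, with the same seed but from the other cluster, was at 11.01 ± 0.29 in CHR and 12.55 ± 0.51 in PAP (SD), a log2 fold change of 1.54 ± 0.27 (SE, adjusted p = 0.000885). These groups did not overlap either. miR-20a-5p, called higher, and miR-106b-5p, not called (adjusted p = 0.0919), hold the same seed and were detected in only 2 CHR and 4 PAP samples each. Over the 4 arms with this seed the median was 1.72. miR-20a-5p did not pass without mouse 3, 8, 9 or 10, and with a floor of 100 ppm its difference was 0.068 (adjusted p = 0.556).

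Both clusters also encode arms with the seed of miR-25 and miR-92. miR-25-3p was at 12.07 ± 0.37 in CHR and 13.47 ± 0.61 in PAP (SD, log2 fold change 1.40, adjusted p = 0.00489). miR-92a-3p, one of the most abundant microRNAs of both tissues, was at 16.28 ± 0.36 and 17.41 ± 0.49 (SD, 1.13, adjusted p = 0.00938), but not past the threshold without mouse 7 (adjusted p = 0.0508). The third member, miR-92b-3p, comes from a separate locus on chromosome 3 and went the other way. It ranged from 10.54 to 11.82 in CHR (median 11.12) and from 3.32 to 10.02 in PAP (median 8.91), a difference of -3.06 ± 0.94 (SE, adjusted p = 0.0292). The groups did not overlap, 1 PAP sample was undetected, and the call was lost without mouse 3, 7 or 9. Passenger arms of the clusters were higher in part, with miR-92a-1-5p at 1.70 and miR-106b-3p at 1.40 without overlap, and miR-18a-3p at 1.47, which did not pass with mouse as a block (adjusted p = 0.0756) or without mouse 7, 8, 9 or 10.

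The clusters around miR-23, miR-27 and miR-24 on chromosomes 8 and 13 are expressed in many cell types and are known from endothelium and muscle. Of their 8 tested arms, 3 were called higher, against 14.0% of all tested microRNAs. miR-27b-3p went from 15.18 ± 0.14 to 16.24 ± 0.50 (SD, log2 fold change 1.05, adjusted p = 0.00851) without overlap. Its CHR samples of mice 2, 3, 7, 8 and 9 had the same value, 15.24, so the SD in CHR rests on mouse 10. miR-27a-3p, from the other cluster, differed by 0.95 (adjusted p = 0.0313). miR-24-3p, which both clusters encode with 1 sequence, differed by 0.83 (adjusted p = 0.0497) and was not called with mouse as a block (adjusted p = 0.0761) with undetected values raised (adjusted p = 0.059) or with a floor of 100 ppm (adjusted p = 0.0511). Neither miR-27a-3p nor miR-24-3p passed without mouse 2, 3, 7 or 8.

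In the miR-15/16 family, which restrains cyclins and BCL2, members with an identical seed did not move together. miR-15b-5p, from the Mir15b/Mir16-2 pair in an intron of Smc4 (chr3:69009772-69009996), was at 11.73 ± 0.33 in CHR and 12.38 ± 0.10 in PAP (SD). The groups did not overlap although the gain was only 0.65 ± 0.21 (SE, adjusted p = 0.0364), and it did not pass with mouse as a block (adjusted p = 0.0934), with undetected values raised (adjusted p = 0.0727) or without mouse 3, 7, 8, 9 or 10. miR-16-5p was at 12.59 ± 0.53 and 13.24 ± 0.71 (SD, adjusted p = 0.198). miR-195a-5p, from chromosome 11, ranged from 6.38 to 8.71 in CHR (median 8.08) and from 3.32 to 6.72 in PAP (median 5.95), a fall of 2.23 on the log2 scale (-2.23 ± 0.56 SE, adjusted p = 0.0101). Its other arm miR-195a-3p was detected in 6 CHR and 2 PAP samples and was called lower (adjusted p = 6e-05), but not with undetected values raised (adjusted p = 0.136) or with a floor of 100 ppm (adjusted p = 0.225). miR-497-5p, its neighbour in the genome, differed by -2.44, or -1.51 with undetected values raised (adjusted p = 0.0287 for the first), and did not pass without mouse 3, 8 or 10.

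miR-221 and miR-222 also share a seed and lie side by side at chrX:19146294-19146971 on the minus strand. They repress CDKN1B and KIT. miR-221-3p was at 11.40 ± 0.42 in CHR and 11.36 ± 0.33 in PAP (SD, adjusted p = 0.93). miR-222-3p, by contrast, was at 14.22 to 15.03 in CHR (median 14.78) and at 12.12 to 13.55 in PAP (median 13.14). Its groups did not overlap, and it was 3.19-fold lower (log2 fold change -1.67 ± 0.29 SE, adjusted p = 0.000677). The passenger arm miR-221-5p was lower by -1.03 (adjusted p = 0.0412), a call that was lost without any 1 of the 6 mice with mouse as a block (adjusted p = 0.0922) and with a floor of 100 ppm (adjusted p = 0.0525). The difference in response between miR-221-3p and miR-222-3p was itself not tested.

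The miR-181 family, known from lymphocyte and vascular biology, held 4 lower calls among 7 tested arms and none higher, with a median of -1.37. Of all tested microRNAs, 18.4% were called lower. miR-181a-5p was the most abundant tested microRNA of CHR by mean, at 16.15 to 18.47 (median 18.47), and lay at 13.65 to 16.59 in PAP (median 16.26). The PAP sample was lower in 6 of 6 mice (log2 fold change -2.01 ± 0.56 SE, adjusted p = 0.0189), and the call was lost without mouse 3, 7 or 8. miR-181b-5p followed at -1.37 (adjusted p = 0.0304) and was lost without mouse 2, 3, 7, 8 or 9. Both main arms come from 2 loci, on chromosomes 1 and 2, and cannot be assigned to either. The passenger arms can: miR-181a-2-3p, from chromosome 2, fell from 10.13 ± 0.66 to 6.12 ± 2.20 (SD, adjusted p = 0.00374) without overlap. miR-181a-1-3p, from chromosome 1, was at 7.80 ± 0.60 and 5.99 ± 1.36 (SD, adjusted p = 0.0306, and 0.0532 with mouse as a block). It was lost without mouse 2, 8 or 9. miR-181c-5p and miR-181d-5p, with the same seed and other loci, differed by -0.39 and 0.23 and were not called.

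The genes of miR-125 and miR-10 lie at let-7 and Hox loci. Counted together with miR-351, their arms held 3 lower calls and 1 higher call among 8 tested. The shares over all tested microRNAs were 18.4% lower and 14.0% higher. miR-10b-5p, located in introns of Hoxd3 and Hoxd4 on chromosome 2, was at 15.56 to 17.97 in CHR (median 17.09) and at 14.61 to 15.98 in PAP (median 15.34). It was lower in 6 of 6 mice, by -1.70 ± 0.42 (SE, adjusted p = 0.00961). miR-125a-5p was lower by -1.21 (adjusted p = 0.0166) and miR-351-5p, with the same seed, by -1.26 (adjusted p = 0.0336). The first was lost without mouse 3 or 7 and the second without mouse 2, 3, 7, 9 or 10 and with a floor of 100 ppm (adjusted p = 0.0504). The higher call was a passenger arm, miR-125b-1-3p, at 7.07 to 8.56 in CHR and 9.03 to 10.33 in PAP (1.54 ± 0.35 SE, adjusted p = 0.00493), without overlap.

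miR-204-5p, from an intron of Trpm3 on chromosome 19 and known from retinal pigment epithelium and as a suppressor of invasion, was among the largest losses. It ranged from 9.19 to 9.70 in CHR (median 9.51), while 4 of 6 PAP samples were undetected and the highest, of mouse 2, was 6.26. The difference was -5.42 ± 0.48 on the truncated scale (SE, adjusted p = 6e-06) and -3.56 with undetected values raised. The other tested arm of its family, miR-211-5p, differed by -1.27 and was not called. The p53-induced miR-34 family had 2 lower calls among 4 tested arms, against 18.4% called lower of all tested microRNAs. miR-34b-3p was at 5.96 to 8.25 in CHR (median 7.62) and detected in 1 PAP sample, at 4.88 (adjusted p = 2.6e-05), a difference of -3.72 on the truncated scale and of -1.62 with undetected values raised. With a floor of 100 ppm it was -0.79 and not called (adjusted p = 0.0534). miR-34c-3p was likewise detected in 6 CHR samples and 1 PAP sample and was called lower by -1.73 (adjusted p = 0.00568), but with undetected values raised its difference turned to 0.37 and was not called, nor was it with a floor of 100 ppm. miR-34c-5p was lower in 6 of 6 mice, at -1.74, and passed with mouse as a block (adjusted p = 0.0213, against 0.132 without). miR-196a-5p, from the Hox clusters, was detected in 6 CHR samples and 1 PAP sample (adjusted p = 0.000641, 0.172 with undetected values raised and 0.32 with a floor of 100 ppm). miR-532-3p, of the cluster in Clcn5 on the X chromosome, was lower by -0.88 (adjusted p = 0.0336, and 0.0988 with mouse as a block), and not past the threshold without mouse 2, 3, 7 or 10.

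In PAP, 3 of 4 tested skeletal muscle arms, 2 of 3 smooth muscle arms and 3 of 6 fibroblast arms were called lower and none higher. Over all 293 tested microRNAs, 18.4% were called lower and 14.0% higher. Of the fibroblast calls, miR-199a-3p and miR-199b-3p had identical values and count as 1 measurement. With undetected values raised, the skeletal muscle calls came down to 1. In bulk tissue, fewer cells of a type and less RNA per cell cannot be told apart. miR-133a-3p, a muscle microRNA, was among the most abundant entries of CHR, at 15.44 to 15.98 (median 15.56). In PAP it was undetected in 3 samples, at a median of 4.14, and reached 12.44 in mouse 2. The difference was -10.04 ± 1.30 on the truncated scale (SE, adjusted p = 7.6e-05) and -8.55 with undetected values raised. miR-133b-3p and miR-206-3p, which share a locus on chromosome 1, were detected in all 6 CHR samples, at 5.45 to 7.01 and 5.32 to 7.52, and were listed at the lowest value in all 6 PAP samples. Both were called lower (adjusted p = 7e-06 and 2.6e-05), but neither with undetected values raised (adjusted p = 0.208 and 0.13) or with a floor of 100 ppm (adjusted p = 0.362 and 0.193). Only 4 of 18 entries on the skeletal muscle list passed the detection filter, and no arm of miR-1a did.

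Among smooth muscle microRNAs, miR-145a-5p was at 11.67 to 13.77 in CHR (median 12.15) and at 8.63 to 10.54 in PAP (median 9.39). It was 7.10-fold lower without overlap (log2 fold change -2.83 ± 0.45 SE, adjusted p = 0.000452). miR-143-3p, its partner in the cluster, was at 13.60 ± 0.28 and 12.07 ± 0.94 (SD, -1.53, adjusted p = 0.0125), also without overlap, and missed the threshold without mouse 3 (adjusted p = 0.0513). Of 6 tested arms of miR-199 and miR-214, which are processed in part from Dnm3os on chromosome 1, all were negative, with a median of -1.58, and 3 were called lower. Of these, miR-199a-3p and miR-199b-3p had identical values in every library and count as 1 measurement, at -1.48 (adjusted p = 0.0292), which was lost without mouse 3, 7 or 8. miR-214-5p was at -1.69 (adjusted p = 0.0307) and, with undetected values raised, at -0.19 and not called (adjusted p = 0.692), and it was lost with a floor of 100 ppm and without mouse 2, 3, 7, 8 or 10. The endothelial miR-126-3p was at 8.31 ± 0.48 in CHR and 8.12 ± 0.61 in PAP (SD, adjusted p = 0.691), and neither of its arms was called.

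**Figure D4:**
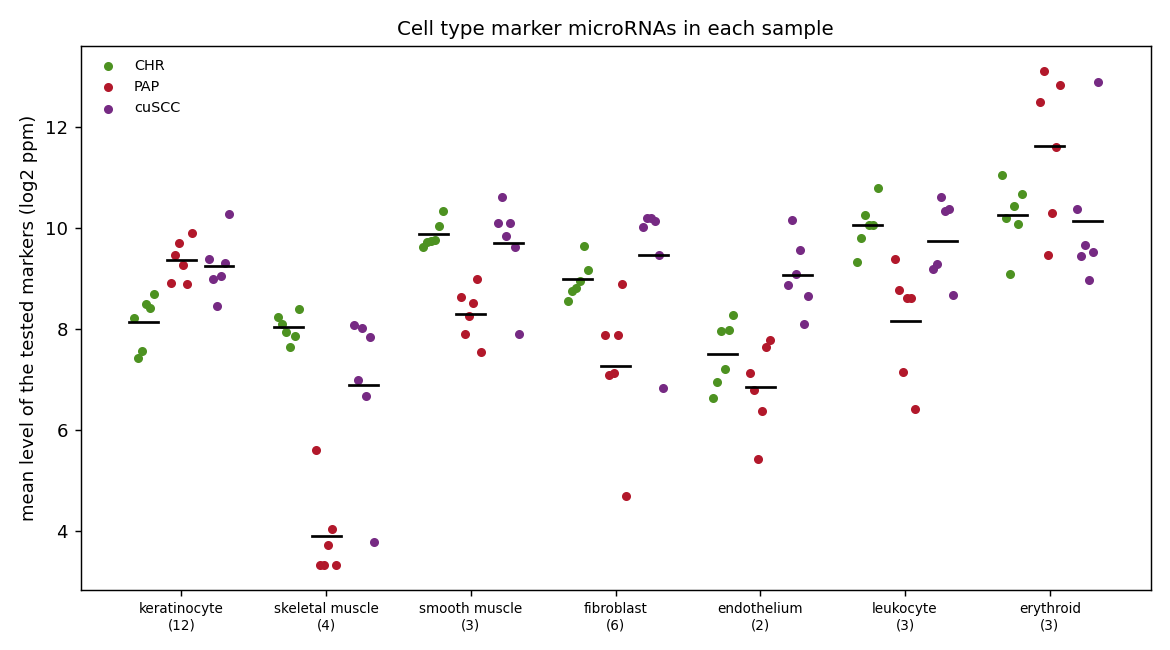
Mean level of the tested cell type marker microRNAs in each sample (log2 ppm), with the number of arms under each name, for CHR (green), PAP (red) and cuSCC (purple), and black bars for the mean of 6 samples. PAP lies above CHR for keratinocyte markers and below it for skeletal muscle, where CHR was at 7.63 to 8.40 and PAP at 3.32 to 5.60, and erythroid markers reach 13.11 in PAP.

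Marker levels were also averaged within each sample. Over 12 tested keratinocyte arms, the mean level was 7.41 to 8.68 in CHR and 8.89 to 9.91 in PAP. The 4 skeletal muscle arms averaged 7.63 to 8.40 in CHR and 3.32 to 5.60 in PAP, and 3 of them were detected in no PAP sample. The 3 smooth muscle arms stood at 9.62 to 10.34 and 7.54 to 8.98, and the 6 fibroblast arms at 8.56 to 9.64 and 4.69 to 8.89. In both sets, 1 arm was detected in no PAP sample. For the endothelium the ranges were 6.63 to 8.27 and 5.43 to 7.79. For leukocytes they were 9.32 to 10.79 and 6.40 to 9.39, over 3 arms that leave out miR-342-3p. No arm of the neuronal miR-9 or miR-124 passed the detection filter. The part that a different share of these cell types in the samples had in the changes of the other microRNAs was not tested.

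Of 4 tested leukocyte arms, 2 were called lower in PAP and none higher, at a median of -2.34, against 18.4% called lower of all tested microRNAs. miR-150-5p, a microRNA of mature lymphocytes, was at 11.67 to 12.79 in CHR (median 12.58) and at 7.99 to 10.68 in PAP (median 10.20). It was 6.17-fold lower without overlap (log2 fold change -2.62 ± 0.44 SE, adjusted p = 0.000641). miR-342-3p, found in lymphoid and myeloid cells, ranged from 11.42 to 13.43 in CHR and from 3.32 to 10.54 in PAP, with medians of 12.70 and 10.10 (-3.66 ± 1.08 SE, adjusted p = 0.0248), and its call was lost without mouse 7 (adjusted p = 0.0712). The granulocyte and macrophage microRNA miR-223-3p was at 9.10 ± 0.47 in CHR and 7.05 ± 2.99 in PAP (SD) and was not called (adjusted p = 0.19), nor was miR-142-5p, at -1.01 (adjusted p = 0.113). The inflammatory miR-146a-5p, a feedback inhibitor of NF-kappaB signalling, was lower in 6 of 6 mice, by -1.67 ± 0.45 (SE, adjusted p = 0.0146), and was lost without mouse 3 or 8. miR-146b-5p was lower by -0.93 (adjusted p = 0.0461, 0.0865 with mouse as a block, 0.0503 with undetected values raised and 0.053 with a floor of 100 ppm) and was lost without mouse 2, 3, 8, 9 or 10.

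miR-451a, the microRNA of red blood cells, was at 3.32 to 7.44 in CHR (median 5.75) and at 7.76 to 12.50 in PAP (median 10.66). The groups did not overlap, and the difference was 4.78 ± 0.87 (SE, adjusted p = 0.00106). It was the only one of 5 tested erythroid arms to be called, against 14.0% called higher of all tested microRNAs. Of these arms, 3 had positive differences and 2, miR-486-3p and miR-3107-3p, had negative ones, with a range of -1.34 to 4.78. miR-486-5p was at 17.12 ± 0.40 and 17.67 ± 0.61 (SD, adjusted p = 0.208), close to the top of the scale, and miR-3107-5p had the same values. The 3 erythroid markers that were averaged, miR-451a, miR-486-3p and miR-486-5p, stood at 9.09 to 11.05 in CHR and 9.45 to 13.11 in PAP. Blood content of the samples was not tested.

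Several broad families had no call. The let-7 family, whose loss releases RAS and HMGA2, had 9 tested 5p arms with the seed GAGGUAG, all with positive differences and a median of 0.27, and none was called. Its 4 tested 3p arms, from hairpins whose 5p arms were positive, all had negative differences, with a median of -1.18, or -0.30 with undetected values raised, and none was called. let-7c-5p was at 15.60 ± 0.55 in CHR and 16.09 ± 0.32 in PAP (SD, adjusted p = 0.224). miR-98-5p, a member of the same family, separated the groups at 3.32 to 7.18 and 7.21 to 10.36 and passed with mouse as a block (adjusted p = 0.048, against 0.0548 without) and with undetected values raised (adjusted p = 0.0217). The 10 tested arms of the miR-30 family, which is linked to epithelial differentiation, had a median of 0.03, and miR-30d-5p was at 15.99 ± 0.35 and 15.76 ± 0.19 (SD, adjusted p = 0.463). The 17 tested arms listed for the imprinted Dlk1-Dio3 locus, of 103 entries, had a median of -0.58, or 0.79 with undetected values raised. Their direction thus rests on how undetected values are treated. That list leaves out miR-1247, whose hairpin lies in Dio3os on chromosome 12 and whose 5p arm was called lower, as given below. The collagen-targeting miR-29a-3p was at 11.43 ± 0.34 and 10.84 ± 0.37 (SD, adjusted p = 0.0919). The miR-99 and miR-100, miR-26, miR-101, miR-103, miR-130, miR-148 and miR-193 groups had no call either.

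The highest gains, of miR-6240 and miR-5109, belonged to entries that are poorly characterised. miR-6240 was detected in 1 CHR sample, at 8.96, and in all 6 PAP samples, at 9.77 to 14.90 (median 10.74), a difference of 7.46 ± 1.12 on the truncated scale (SE, adjusted p = 0.000292) and of 6.73 with undetected values raised. miR-5109 and miR-6243, outside the naming rule and chosen after their values were seen, were higher by 6.27 and 3.95 (adjusted p = 0.00145 and 0.00489). For both, the groups overlapped, with the CHR sample of mouse 8 at 8.59 and 13.10. miR-5109 was detected in 2 CHR samples, and its difference was 5.58 with undetected values raised and 3.63 with a floor of 100 ppm. The reads behind these 3 entries were not analysed here, so their origin was not tested. Other large losses were miR-1981-3p (-3.97), miR-1247-5p (-3.40) and miR-1249-3p (-3.28), with CHR samples at 6.73 to 8.13, 6.35 to 7.80 and 9.46 to 10.96. The first 2 were detected in 1 PAP sample each and the third in 5, and all 3 were called with undetected values raised, the first 2 at -1.88 and -1.30. With a floor of 100 ppm these 2 were at -0.76 and -0.45, and miR-1247-5p was not called (adjusted p = 0.164).

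The arms of 1 hairpin mostly differed in the same direction. Both arms were tested for 65 hairpins, and their differences had the same sign in 47. Both were called for 11 hairpins, in the same direction in 11 of 11, and 1 arm was called for 23, with the other arm of opposite sign in 3. Pearson's r between the arms was 0.69 and Spearman's rho 0.69 over the 65 hairpins. The points share their libraries, and some arms belong to more than 1 hairpin, as for miR-181a. GC content of the mature sequence was weakly related to the difference over the 241 microRNAs with a sequence (Pearson's r -0.15, Spearman's rho -0.23), with a median of 47.9% in higher and 50.0% in lower microRNAs.

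**Figure D5:**
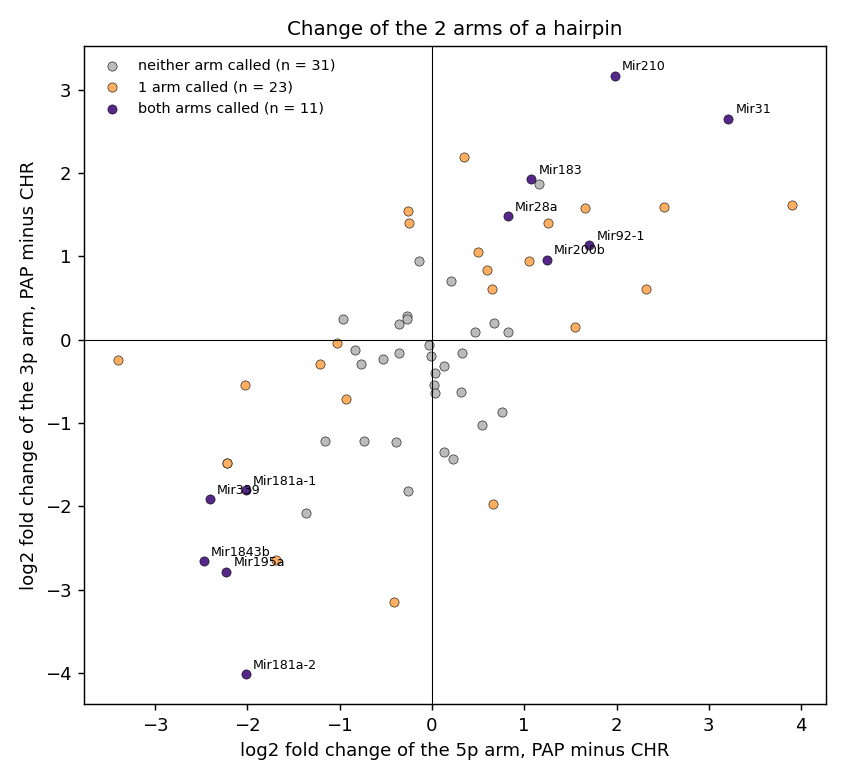
log2 fold change, PAP minus CHR, of the 5p arm (horizontal axis) and the 3p arm (vertical axis) of 65 hairpins with both arms tested. The 11 hairpins with both arms called (purple, named) lie in the quadrants of equal sign, with Mir31 and Mir210 at the upper right and Mir181a-2 at the lower left.

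Against cuSCC of the same mice, PAP differed in fewer microRNAs, 34 of 293 (11.6%), of which 7 were higher (2.39%) and 27 lower (9.22%) in PAP. This comparison shares the PAP libraries with the one above. The count was unstable, at 1 without mouse 3, 7 or 8, 9 without mouse 2 or 9, 59 without mouse 10 and 80 with undetected values raised. It was 0 by an exact permutation test, whose p has a lower limit with 6 libraries per group (smallest adjusted p = 0.0945). The most distinct entry was miR-142-5p, a microRNA of blood cells, at 7.58 in PAP and 10.12 in cuSCC by mean (adjusted p = 0.0018), against 8.59 in CHR. Of the microRNAs called lower in PAP than in CHR, some were lower than in cuSCC as well, with miR-133a-3p at 5.59 and 12.41, miR-143-3p at 12.07 and 14.05 and miR-10b-5p at 15.31 and 17.71 by mean (adjusted p = 0.0394, 0.0402 and 0.0134). miR-145a-5p and miR-214-5p did not pass there (adjusted p = 0.252 and 0.104). miR-126-3p, not called between PAP and CHR, was at 9.71 in cuSCC (adjusted p = 0.0319). miR-21a-5p was at 13.24 in PAP and 15.03 in cuSCC (adjusted p = 0.0383). Of the epithelial and proliferative microRNAs, miR-200c-3p was higher in PAP than in cuSCC by 1.45 (adjusted p = 0.0319). Other miR-200 arms, miR-429-3p (0.62, adjusted p = 0.368) and miR-200a-5p (0.78, adjusted p = 0.395), were not called there. Neither were miR-31-5p (0.49), miR-210-3p (0.77), miR-17-5p (-0.10) and miR-182-5p (0.17).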

How the data were processed

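Small RNA from CHR, PAP and cuSCC of 6 mice was sequenced on the Illumina HiSeq platform. The authors removed adapter sequence, left out reads that were too short or that ended in a homopolymer, and used BLAST against miRBase to count microRNAs as a share of the reads, in ppm. The deposited values are on the log2 scale. Their quantile normalization over the 18 libraries and the lowest value of 10 ppm were read from the values. The submitters' processing notes name the build mm10, and the versions of the tools are not given in the sources used here. Because quantile normalization gives every library nearly the same set of values, gains in some microRNAs are balanced by losses in others.

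Entries that were detected in 6 or more of the 18 libraries were tested, PAP against CHR and PAP against cuSCC, on 6 libraries each, with the moderated test of limma 3.58.1 (R 4.3.3), two-sided and without a block, with Benjamini-Hochberg adjustment over the 293 tested entries and a threshold of 0.05. No counting test was possible on log2 values. The samples are paired by design, since a number marks 1 mouse. Between the 2 samples of a mouse, deviations from the group mean had a mean correlation of 0.025 (-0.14 to 0.18). Alternatives were mouse as a block, other detection filters, all 18 libraries in 1 fit, centring, raised undetected values, 100 ppm as the lowest value, an exact permutation test, trended and robust limma, and leaving out each mouse.

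Named microRNAs were the 8 largest gains and the 8 largest losses among called microRNAs whose samples did not overlap, up to 3 called members of each list and cluster, or, where none was called, the member with the highest mean. miR-98-5p, miR-34c-5p, miR-92b-3p and other members named only for comparison with these were chosen after their values were seen. The members and lists were chosen with earlier results of these data known. Hairpins within 10 kb on the same strand formed a cluster. Positions are RefSeq's on GRCm38.p6, with hosts from GENCODE. Plots were made with matplotlib 3.10.9 in Python 3.11.15.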

Additional observations from a re-analysis of the deposited data

Results flagged for a closer look

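In 23 of 140 groups (CHR or PAP, for 70 named microRNAs), the highest or lowest of 6 samples stood apart from the others by more than Dixon's 95% limit. Chance alone gives about 1 in 20. Where 5 of 6 samples have the same value, as when undetected or for miR-27b-3p in CHR, any other sample is singled out. No explanation was tested for these values.

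In PAP, 7 of them were the sample of mouse 10, always the lowest: miR-342-3p, miR-1249-3p, miR-183-3p, miR-128-3p and miR-132-3p were undetected there (3.32), while the next lowest samples of miR-342-3p and miR-132-3p were at 8.13 and 7.07. miR-181a-5p was at 13.65 (nearest 15.98) and miR-181b-5p at 8.91 (nearest 10.82). That library had the fewest detected entries, 163. The PAP sample of mouse 8, with the most detected PAP entries (281), was highest for miR-1981-3p (3.95), miR-34b-3p (4.88), miR-1247-5p (5.11) and miR-34c-3p (3.71), each undetected in the other PAP samples, and for miR-99b-5p (16.80). The PAP sample of mouse 2 was highest for miR-133a-3p (12.44, nearest 6.17) and miR-196a-5p (5.18).

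In CHR, the sample of mouse 10 was highest for miR-183-5p (13.26), miR-125a-5p (17.71) and miR-145a-5p (13.77) and lowest for miR-27b-3p (14.90). Mouse 8 was alone in detecting miR-6240 (8.96). The lowest CHR samples were mouse 3 for miR-429-3p (6.34), mouse 7 for miR-182-5p (14.33), mouse 2 for miR-26a-5p (14.44) and mouse 9 for miR-150-5p (11.67).

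Outside the tested entries, miR-5126 was detected in 3 PAP samples and no CHR sample, at up to 9.09, and miR-6538 in 4 PAP samples and no CHR sample, at up to 8.17.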

How the results depend on the processing

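Counts over PAP and CHR stayed within 1.5 times of the reported 41 higher and 54 lower microRNAs with mouse as a replicate block (33 and 44, of which 32 and 43 were among the reported calls), a detection minimum of 3 or 12 libraries, all 18 libraries in 1 fit, centring, the exact permutation test and trended, robust limma. They did not for 63 higher with undetected values raised (split 63 to 37), 28 lower with 100 ppm as the lowest value, and 32 lower without a filter, where 433 entries were tested. Leaving out each mouse in turn gave 25 to 38 higher and 30 to 41 lower, lowest without mouse 3. Chosen after seeing the data, leaving out mice 2 and 3 gave 19 and 28, and mice 7 and 10 gave 27 and 35, in each case with fewer samples. With the pairing by mouse, 20 of the 95 calls were lost. Those on microRNAs that the results describe are given there, and the others fell on microRNAs that the results do not describe. The 2 calls gained, miR-98-5p and miR-34c-5p, are given beside the results too.

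PAP against cuSCC gave 34 calls, 2 with 100 ppm as the lowest value, 2 without a filter, 21 with a minimum of 12 libraries, 80 with undetected values raised, 1 to 59 leaving out each mouse, 24 with mouse as a replicate block, and 0 by the exact permutation test, where 75 had an unadjusted p under 0.05 against 83 by limma. The lowest p that the exact test can give with 6 libraries per group is 0.0022, and its smallest adjusted p here was 0.0945. The cause of the other differences in count was not tested.

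Of 55 named and called microRNAs, 1 reversed: miR-34c-3p, at 0.37 with undetected values raised. Among those not called, miR-101a-3p turned to 1.20 with undetected values raised, miR-26a-5p to -0.015 without mouse 2 (up to 0.277 without mouse 8) and -0.082 without mice 2 and 3, and miR-99b-5p to 0.091 without mice 7 and 10. With 100 ppm as the lowest value 15 of the 55 calls were lost, without a filter 12, with the block 6, and without mouse 3 17. Depth is unknown, and entries near the lowest detected value of a library, up to 6.83, cannot be told from undetected ones there.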
